A study of Mus musculus with 20 samples.

Results

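The genes described here are 36 genes of heparan sulfate (HS) synthesis and of proteoglycan core proteins, taken by gene name from the 54532 genes of the raw count table. They comprised 7 genes of linker assembly, 4 of chain polymerisation, 9 of epimerisation and sulfation, 3 enzymes that edit finished chains, 4 syndecans, 5 glypicans, 3 secreted core proteins and serglycin. The rule used gene names and no measured value, but the members were chosen with earlier results of these data known. Of the 36 members, 25 had enough counts to be tested in neutrophils, and 36 of 36 were tested in lung.

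HS is a long sulfated sugar chain carried by proteoglycans at the cell surface and in the extracellular matrix. HS is built in the Golgi on serines of a core protein: a short linker is made first, the EXT enzymes then polymerise the chain, and sulfotransferases and an epimerase modify it in patches that bind proteins. Endothelial and epithelial surfaces and basement membranes of the lung carry HS, and leukocytes also hold proteoglycans in their granules. RAGE, a cell surface receptor of damage-associated ligands encoded by Ager, is one of the proteins that bind HS.

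The study profiled polyadenylated RNA of 2 tissues from C57BL/6 mice of 3 Ager genotypes: Ager-/- mice, which lack RAGE, Ager AHA/AHA mice, which carry point mutations in the HS-binding residues of RAGE, and wild-type (WT) mice. Neutrophils (3 Ager-/-, 3 Ager AHA/AHA and 3 WT libraries) were cells washed from a dorsal air pouch 4 h after injection of 1 µg lipopolysaccharide (LPS) of Escherichia coli, above 95% neutrophils by the study's staining. Lung (4 Ager-/-, 4 Ager AHA/AHA and 3 WT libraries) was perfused whole tissue with no treatment given in the labels. The paper reports germline transmission of the knock-in and describes the Ager-/- mice as a knockout line. It names no Cre driver for any group, so every cell type of a mouse is taken to carry its allele. Whether the knockout allele holds inserted sequence is not stated there. The Ager AHA/AHA line was made by CRISPR knock-in in C57BL/6J eggs, whereas the Ager-/- line came from another laboratory, and age, sex and the use of littermates are missing from the sources used here, and genotype and colony cannot be told apart. The study describes the libraries of a group as biological replicates from different mice, and the labels do not tie a library to a mouse. The Ager-/- and Ager AHA/AHA comparisons share their WT libraries.

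Library totals ranged between 16764589 and 24818703 counts. In lung, Ager ranged between 25.4 and 29.8 CPM (counts scaled to a common total) in Ager-/- libraries, 1612 and 2910 CPM in Ager AHA/AHA libraries and 1918 and 2743 CPM in WT libraries, with every Ager-/- lung far below the others as its label states. In neutrophils Ager was low and was not lower in the libraries labelled Ager-/-: it had 2.61, 3.599 and 3.78 CPM in the libraries labelled Ager-/- (60 to 101 counts), 0.891, 1.20 and 1.88 CPM in Ager AHA/AHA (15 to 44 counts) and 0.927, 1.44 and 2.40 CPM in WT libraries (15 to 37 counts). All libraries labelled Ager-/- lay above the others. Their difference from WT was 1.07 on the log2 scale and was not called (edgeR adjusted p = 0.0581, SE 0.355). Ager-/- lungs also kept some Ager reads, so the low Ager counts of neutrophils cannot check their labels. The paper reports genes, Rps3a2 among them, with similar changes in Ager-/- lungs and Ager-/- neutrophils. Here the genotype of the neutrophil libraries was taken from their labels. Of 7 neutrophil markers tested, 1 was lower in Ager-/- than in WT neutrophils, and the summed markers were 20084 to 21310 CPM in Ager-/-, 20190 to 29059 CPM in Ager AHA/AHA and 24297 to 33709 CPM in WT. Replicate 2 of the WT neutrophils stood apart in fibroblast markers, at 229.6 CPM, against 10.4 and 5.99 CPM in the other WT libraries, so results that rest on it are given with and without it.

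The most abundant members differed between the tissues. Levels per gene length are given in CPM per kilobase (CPM per kb), scaled over all 20 libraries, as mean ± SD over the 3 WT libraries of a tissue. Srgn, which encodes serglycin, the core protein of secretory granules in blood cells, reached 14704 ± 4167 CPM per kb in WT neutrophils, against 24.3 ± 2.31 CPM per kb in WT lung. Per kilobase, Srgn ranked between 11 and 14 among all genes in the 9 neutrophil libraries. Srgn took 95.0% to 98.0% of all member counts in neutrophil libraries, against 2.14% to 5.45% in lung libraries. RNA counts do not show which sugar chains serglycin carries in these cells, so this share is not one of HS. The 36 members together held 1.03% to 1.43% of the counts of a neutrophil library and 0.224% to 0.306% of those of a lung library.

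After Srgn, the leading members of WT neutrophils were Sdc4 (syndecan-4, a transmembrane core protein), at 113 ± 23.9 CPM per kb, and Xylt1, at 23.0 ± 6.57 CPM per kb. Xylt1 encodes a xylosyltransferase, the enzyme that starts the linker on the core protein. Agrn (agrin, a secreted core protein of basement membranes) followed at 16.0 ± 3.24 CPM per kb and Hs6st1 (HS 6-O-sulfotransferase 1) at 12.9 ± 2.67 CPM per kb. The 1 SD range of Agrn overlapped those of both Xylt1 and Hs6st1, so these neighbours in the order do not differ beyond their spread.

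In WT lung, Gpc3 (glypican-3, a core protein anchored in the membrane by a lipid) was the most abundant member on average, at 59.6 ± 30.5 CPM per kb. Its level in WT replicate 1, 537 CPM, stood above the 282 and 202 CPM of the other WT lungs. Sdc4, at 55.6 ± 2.80, and Sdc1 (syndecan-1, an epithelial and plasma cell core protein), at 45.6 ± 7.08 CPM per kb, came next, and the spread of Gpc3 spanned both. Srgn and B3gat3 (20.8 ± 2.06 CPM per kb), the glucuronosyltransferase that completes the linker, were close to each other and lower than Sdc4 and Sdc1. At the other end, Gpc2, Gpc6, Hs3st3a1 and Xylt1 averaged between 0.0381 and 0.192 CPM per kb in WT lung.

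**Figure D1:**
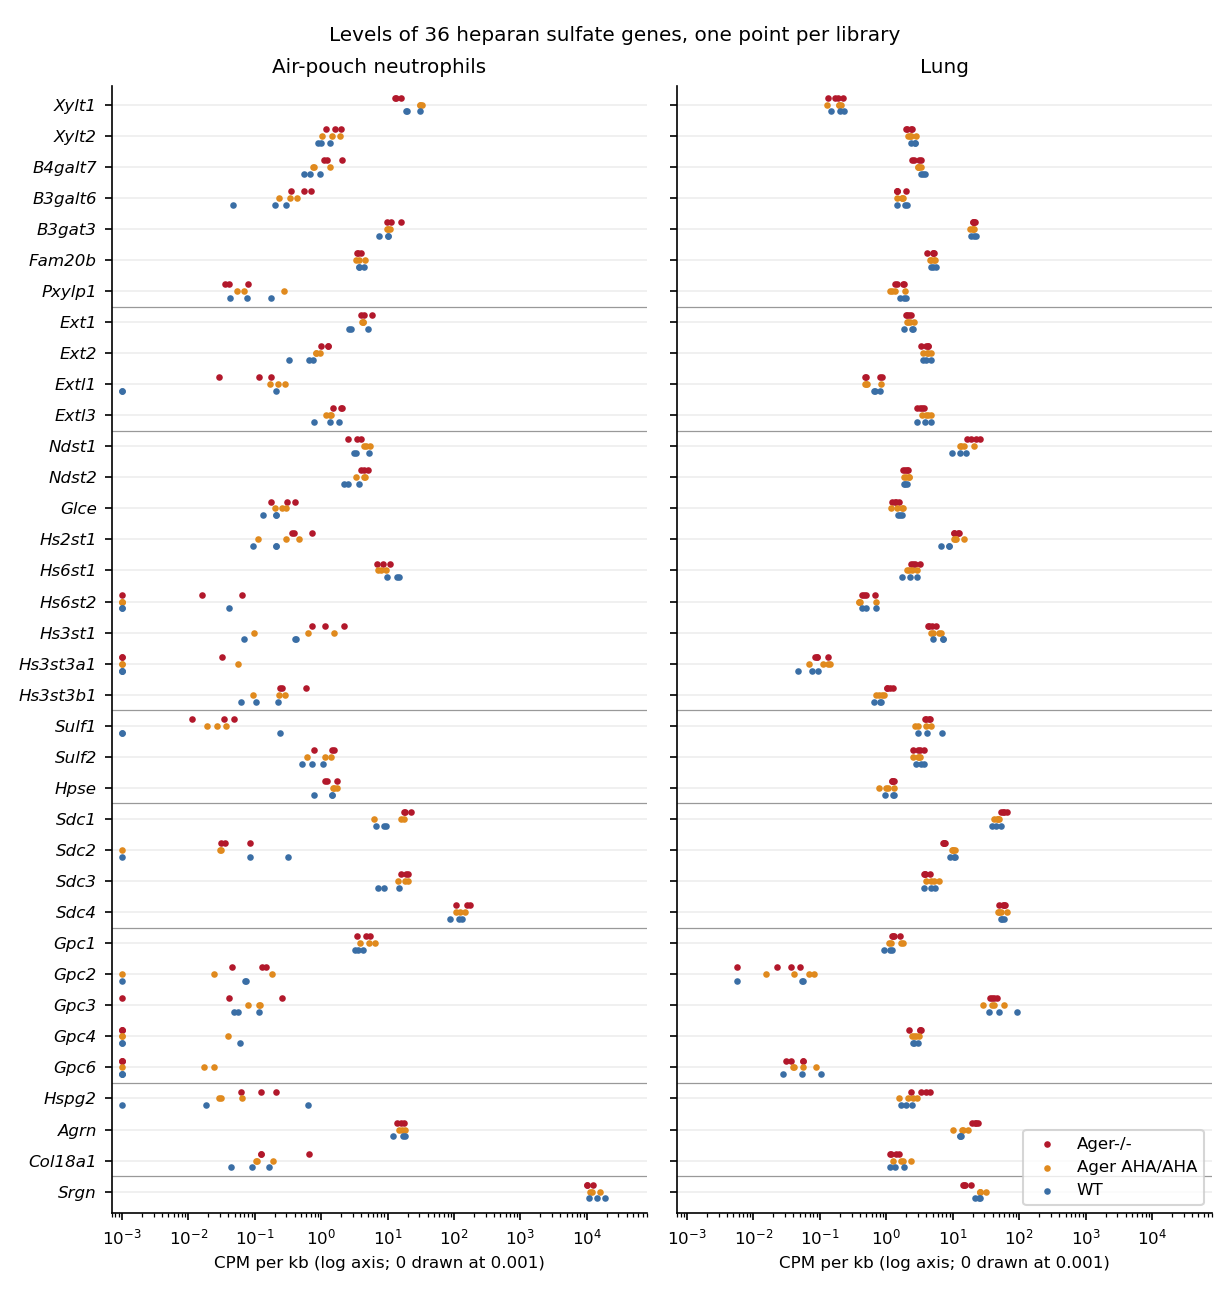
Length-scaled level (CPM per kb on a log axis, scaled over all 20 libraries) of the 36 members, grouped by role, in each neutrophil library (left panel) and lung library (right panel); points are libraries coloured by genotype, and 0 is drawn at the left edge. Srgn lies far above the other members in neutrophils, and most of the other members lie higher in lung.

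WT neutrophils were compared with WT lung to place each member in its tissue. LPS exposure, the pouch and the mix of cells differed between them together with tissue and cannot be told apart, and in bulk RNA fewer cells of a type cannot be told apart from less RNA per cell. Of 35 members tested, 8 were higher in neutrophils (29.2% of all 18180 genes were) and 25 were lower (54.2% of all genes were). Beyond a log2 fold change of 1 in either direction, 30 members were called, against 74.2% of all genes. The median log2 fold change of the members was −2.45, against −1.24 over all genes tested.

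Srgn (log2 fold change 9.24, SE 0.282, adjusted p = 5.6e-20) and Xylt1 (log2 fold change 6.91, SE 0.245, adjusted p = 7.8e-19) were the members with the largest positive differences, and both stayed higher in neutrophils with library totals as the only scaling, at 6.70 and 4.44. Hs6st1, Gpc1, Sdc3, Sdc4, Ext1 and Ndst2 were also higher in neutrophils, by 2.50, 1.77, 1.17, 1.02, 0.62 and 0.52 on the log2 scale, but all 6 turned negative with library totals, which moved the median of all genes by −2.48. Agrn (log2 fold change 0.28, SE 0.167, adjusted p = 0.125) and Hpse, the HS-cleaving heparanase (log2 fold change 0.045, SE 0.259, adjusted p = 0.874), were not called in this comparison. Among the 25 lower members were Sdc1 (log2 fold change −2.45), Ndst1 (−1.70), B3gat3 (−1.16) and Hs2st1 (−5.54). Without replicate 2 of the WT neutrophils, Ext1 and Ndst2 lost their calls (0.24 and 0.26, adjusted p = 0.219 and 0.192). Fam20b, among the lower members, lost its call without WT neutrophil replicate 1 or 3 or WT lung replicate 2 (adjusted p = 0.0502 to 0.0690), and under DESeq2, RLE scaling, the stricter filter, the replicate block or only the compared groups (−0.16 to −0.37, adjusted p = 0.0529 to 0.303). Ext1 lost its call with no filter (adjusted p = 0.0593), and Ndst2 with no filter or the replicate block (0.232 and 0.0555). Agrn was called higher without WT neutrophil replicate 1 (0.42, adjusted p = 0.0295) but lower with library totals (−2.22).

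Several lung members were close to absent from neutrophil libraries. Gpc3 had 7, 1 and 0 counts in Ager-/- neutrophils, 2, 3 and 2 in Ager AHA/AHA neutrophils and 1, 2 and 1 in WT neutrophils, against 3114 or more counts in every lung library. Sdc2 (syndecan-2) had 3, 1 and 1 counts in Ager-/- neutrophils, 0, 1 and 1 in Ager AHA/AHA neutrophils and 2, 7 and 0 in WT neutrophils. Hs3st3a1, a 3-O-sulfotransferase, and Gpc6 had no count in WT neutrophils, and with a floor of 3 counts over that group they were at least 1.97-fold and 2.63-fold lower than in WT lung. Such zeros cover counting error only.

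In 6 of 9 families of paralogous enzymes or cores, the make-up differed between the tissues in its leading genes or by a wide margin. The share of a gene in the counts per kb of its family is a ratio within a library, which no scaling between libraries changes, and it is given here as a description without a test. Xylt1 made up 87.1% to 96.9% of the Xylt1 and Xylt2 sum in the 9 neutrophil libraries, against 5.24% to 10.1% in the 11 lung libraries. Ext1 made up 76.1% to 88.6% of the Ext1 and Ext2 sum in neutrophils, against 32.6% to 37.9% in lung. Ext1 and Ext2 work as a complex that polymerises HS. Of the N-deacetylase/N-sulfotransferases, which start sulfation, Ndst1 held 37.2% to 67.6% of its sum with Ndst2 in neutrophils, against 83.6% to 93.6% in lung.

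The core proteins split as sharply. Gpc1 (glypican-1) held 92.0% to 98.9% of glypican counts per kb in neutrophils, against 0.941% to 4.09% in lung, where Gpc3 held 88.3% to 96.3%. Sdc4 held 76.3% to 89.4% of the syndecans in neutrophils, against 43.6% to 50.5% in lung. Sdc1 held 4.87% to 12.4% of the syndecans in neutrophils, against 37.3% to 47.8% in lung. Sulf2, one of the extracellular sulfatases that trim 6-O-sulfates, held 81.9% to 100% of its sum with Sulf1 in neutrophils, against 31.9% to 50.4% in lung. The 81.9% came from WT replicate 2, with the high fibroblast markers and 17 Sulf1 counts. The other WT neutrophil libraries had 0 Sulf1 counts, and the mutant ones had a Sulf2 share of 95.7% or more. For each of these genes the ranges of the 2 tissues did not overlap. The other families had the same leading gene in both tissues on average, as did the Ndst enzymes (Ndst1) and the syndecans (Sdc4). Hs6st1 held 99.1% to 100% of the 6-O-sulfotransferases in neutrophils, against 77.5% to 88.1% in lung. Agrn held 95.0% to 99.6% of the secreted cores in neutrophils, against 73.2% to 84.0% in lung. The Hs6st1 and Agrn ranges did not overlap between the tissues either. The Hs3st1 share of the 3-O-sulfotransferases overlapped between the tissues, at 22.1% to 90.2% in neutrophils, against 78.1% to 90.4% in lung. The member 3-O-sulfotransferases together had only 3 to 62 counts per neutrophil library, against 617 to 992 per lung library. Neutrophil Sulf2 counts were low (23 to 78 per library), and the strand setting of the counting is not given, so reads of Sulf2 and of Gpc1 cannot be told apart from those of the genes that overlap them, Ncoa3 and Ankmy1. In all, 17 of the 36 members overlap another gene of the table, 6 of them a protein-coding one.

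**Figure D2:**
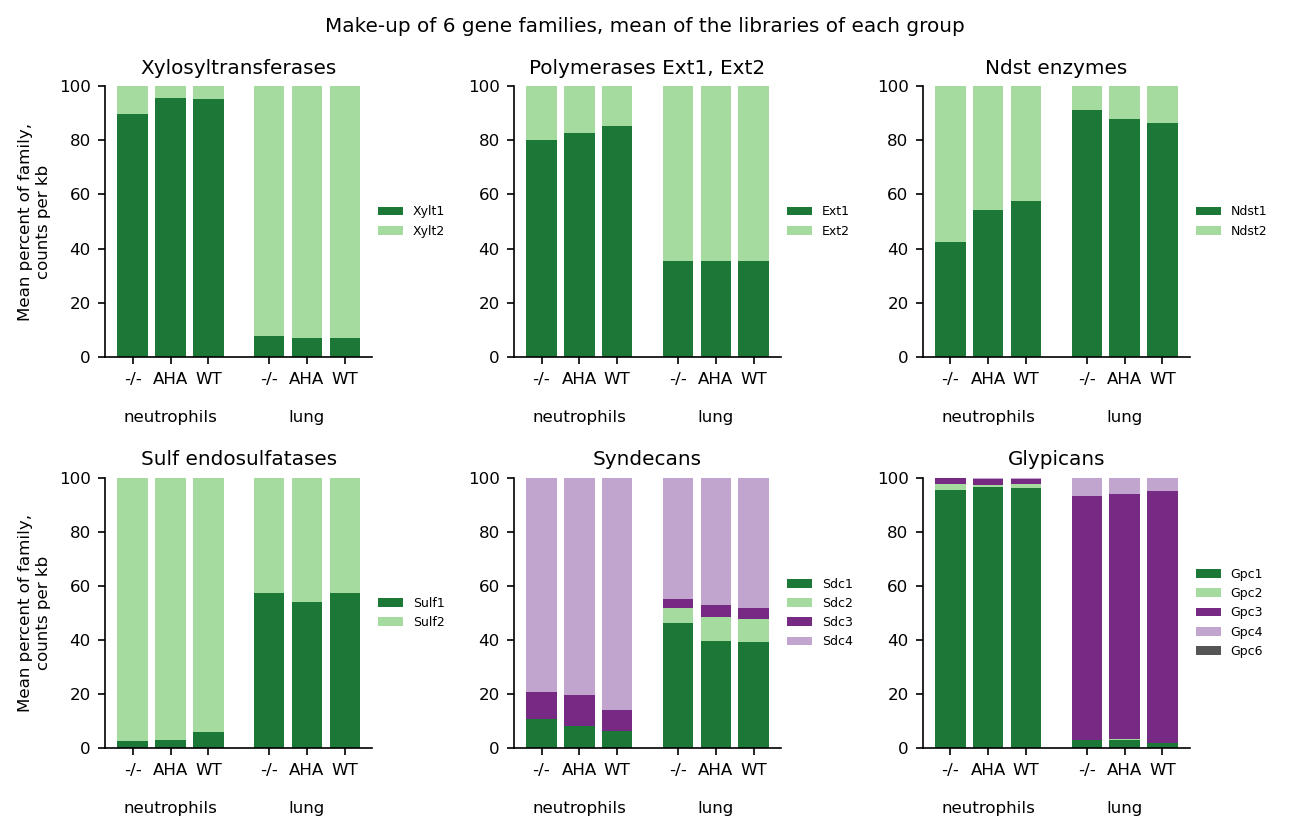
Make-up of 6 gene families, members only, as stacked bars of the mean percent of the family's counts per kb in Ager-/- (-/-), Ager AHA/AHA (AHA) and WT libraries of neutrophils and lung. The make-up differs by tissue in the 6 families drawn: Xylt1 takes 87.1% to 96.9% of its family in single neutrophil libraries and 5.24% to 10.1% in lung libraries.

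Promoter windows of members that changed with genotype in the comparisons described next (Srgn, Agrn, Sdc1 and Sdc3) are shown because they carry unlike sequence. Xylt1 and Sdc2, which also changed, are without an entry in the promoter table used here. Each window runs from 250 bases before the most upstream annotated start of the gene to 50 bases after it (RefSeq, build GRCm38.p6), 5′ to 3′ on the gene's strand. Capitals mark matches on either strand to the GC box GGGCGG or the TATA box TATAAA. The windows are Srgn chr10:62527396-62527695 (minus strand), Agrn chr4:156197439-156197738 (minus strand), Sdc1 chr12:8771146-8771445 (plus strand) and Sdc3 chr4:130792287-130792586 (plus strand).
Srgn: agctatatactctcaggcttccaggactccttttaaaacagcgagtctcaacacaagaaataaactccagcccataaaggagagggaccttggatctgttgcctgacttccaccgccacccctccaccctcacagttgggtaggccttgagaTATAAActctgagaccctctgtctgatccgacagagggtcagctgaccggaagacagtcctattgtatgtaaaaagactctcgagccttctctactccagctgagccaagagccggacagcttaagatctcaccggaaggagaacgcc
Agrn: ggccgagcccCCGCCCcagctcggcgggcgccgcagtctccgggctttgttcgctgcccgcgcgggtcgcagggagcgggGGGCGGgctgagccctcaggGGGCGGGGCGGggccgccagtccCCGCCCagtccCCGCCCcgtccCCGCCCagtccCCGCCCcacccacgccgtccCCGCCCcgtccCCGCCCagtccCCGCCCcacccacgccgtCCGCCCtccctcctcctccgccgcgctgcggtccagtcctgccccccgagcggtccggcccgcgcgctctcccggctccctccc
Sdc1: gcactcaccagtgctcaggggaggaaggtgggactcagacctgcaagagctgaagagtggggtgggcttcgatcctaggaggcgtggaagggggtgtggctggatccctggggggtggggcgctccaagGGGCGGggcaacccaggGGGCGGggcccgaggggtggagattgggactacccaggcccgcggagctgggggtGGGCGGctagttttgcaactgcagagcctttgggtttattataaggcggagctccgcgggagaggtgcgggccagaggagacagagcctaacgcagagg
Sdc3: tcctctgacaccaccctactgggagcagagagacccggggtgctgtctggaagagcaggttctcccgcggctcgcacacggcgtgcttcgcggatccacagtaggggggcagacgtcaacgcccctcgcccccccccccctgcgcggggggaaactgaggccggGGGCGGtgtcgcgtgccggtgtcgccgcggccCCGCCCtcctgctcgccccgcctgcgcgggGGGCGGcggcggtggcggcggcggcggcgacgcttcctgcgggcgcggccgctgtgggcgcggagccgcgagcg
The Agrn window held 12 GC boxes, overlapping ones included, and 83.3% G or C. The Sdc1 and Sdc3 windows held 3 GC boxes each. The Srgn window held a TATA box, no GC box and 51% G or C. Of 36 members, 28 matched the promoter table, with 33 windows. A GC box was in 22 of the 33 member windows (66.7%), against 35.7% of all 32851 windows, and TATAAA was in 3 (9.09%), against 13.6%. The median G and C content was 66.3% in member windows and 52.7% in all. A match is a string of letters and does not show that a factor binds there.

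The comparison of the neutrophil libraries labelled Ager-/-, in which Ager was not lower, with WT neutrophils asks what loss of RAGE goes with in cells recruited by LPS. Of 25 members tested, Sdc1 and Sdc3 rose and Xylt1 fell. Xylt1 starts the linker, and the syndecans are core proteins at the cell surface. The counts lie near those of the whole transcriptome: 6.65% of all 11632 genes were called higher and 4.01% were called lower in this comparison (edgeR's quasi-likelihood test, Benjamini-Hochberg adjusted p under 0.05). With a log2 fold change beyond 1 also required, Sdc1 alone was called, against 5.59% of all genes. The median log2 fold change was 0.39 over the tested members and 0.0056 over all genes, and 12 members (48%) had an unadjusted p under 0.05, against 30.5% of all genes.

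Xylt1 (chr7:117380979-117673580, mm10, plus strand) had 48.2, 60.2 and 51.1 CPM in Ager-/-, 116, 115 and 128 CPM in Ager AHA/AHA and 80.1, 71.5 and 126 CPM in WT neutrophils. The Ager-/- libraries were all below the WT libraries (log2 fold change −0.80, SE 0.202, adjusted p = 0.0220). They were also all below the Ager AHA/AHA libraries (log2 fold change −1.17, SE 0.203, adjusted p = 0.00556), whereas the Ager AHA/AHA and WT ranges overlapped (log2 fold change 0.37, SE 0.200, adjusted p = 0.294). The Xylt1 share of the xylosyltransferases was 89.7% ± 3.04 in Ager-/-, 95.5% ± 1.42 in Ager AHA/AHA and 95.3% ± 1.66 in WT neutrophils (SD, n = 3 each), with Xylt1 the prevailing form in every library.

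The other linker enzymes were lower in abundance. B3gat3 had 9.79, 7.13 and 6.48 CPM in Ager-/-, 6.36, 6.86 and 6.22 CPM in Ager AHA/AHA and 6.80, 4.70 and 7.05 CPM in WT neutrophils, and the groups overlapped (log2 fold change 0.34, SE 0.221, adjusted p = 0.307). Fam20b, the kinase that phosphorylates the linker xylose, lay lower in all Ager-/- than in all WT neutrophils but was not called (log2 fold change −0.19, SE 0.179, adjusted p = 0.500). Of the 7 linker genes, 6 were tested in neutrophils and only Xylt1 was called.

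Of the polymerising enzymes, Ext1 had 13.6, 12.6 and 18.9 CPM in Ager-/-, 13.1, 13.3 and 13.2 CPM in Ager AHA/AHA and 8.87, 15.9 and 9.65 CPM in WT neutrophils (log2 fold change 0.39, SE 0.223, adjusted p = 0.238), with overlapping groups. Its partner Ext2 was at 16 to 83 counts per neutrophil library and lay higher in all Ager-/- than in all WT neutrophils without reaching the threshold (log2 fold change 0.92, SE 0.299, adjusted p = 0.0538). None of the 3 polymerisation genes tested was called by the edgeR fit used here, but DESeq2 called Ext2 higher (0.89, adjusted p = 0.0464).

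No sulfation gene was called in a genotype comparison of neutrophils by the edgeR fit used here. In other settings some were, among them Hs3st1, at low counts, for Ager-/- against WT (2.06 by DESeq2, adjusted p = 0.0477). Ndst1 had 5.91, 9.60 and 8.54 CPM in Ager-/-, 11.0, 10.4 and 12.9 CPM in Ager AHA/AHA and 8.54, 7.35 and 13.8 CPM in WT neutrophils, and Ager-/- and WT overlapped (log2 fold change −0.31, SE 0.241, adjusted p = 0.398). Hs2st1, the only HS 2-O-sulfotransferase, had 32, 54 and 24 counts in Ager-/- neutrophils, 6, 22 and 36 in Ager AHA/AHA neutrophils and 5, 11 and 13 in WT neutrophils. The Ager-/- libraries lay above the WT libraries at these low counts, without a call (log2 fold change 1.45, SE 0.494, adjusted p = 0.0637). With no filter, only the compared groups or library totals, edgeR called Hs2st1 higher (adjusted p = 0.0262, 0.0453 and 0.0276).

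Hs6st1 was the sulfotransferase with the highest level in neutrophils. It had 14.6, 23.3 and 19.5 CPM in Ager-/-, 16.8, 15.4 and 20.6 CPM in Ager AHA/AHA and 33.1, 32.0 and 23.2 CPM in WT neutrophils. The Ager AHA/AHA libraries were all below the WT libraries, while the highest Ager-/- library reached the lowest WT library. Neither mutant reached the threshold (log2 fold change −0.62, SE 0.205, adjusted p = 0.0578 for Ager-/-; log2 fold change −0.74, SE 0.206, adjusted p = 0.0534 for Ager AHA/AHA). DESeq2 called Hs6st1 lower in both (adjusted p = 0.0305 for Ager-/- and 0.0227 for Ager AHA/AHA). So did edgeR with no filter (adjusted p = 0.0441 and 0.0157).

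The syndecans held both members that rose in the neutrophils labelled Ager-/-. Sdc1 (chr12:8771323-8793715, mm10, plus strand) had 26.0, 26.2 and 34.9 CPM in Ager-/-, 9.03, 23.6 and 26.7 CPM in Ager AHA/AHA and 14.3, 14.0 and 11.0 CPM in WT neutrophils, so all Ager-/- libraries were above the WT libraries (log2 fold change 1.15, SE 0.300, adjusted p = 0.0290) and the Ager AHA/AHA libraries spanned both (log2 fold change 0.60, SE 0.299, adjusted p = 0.260). Sdc3 (chr4:130792537-130826319, mm10, plus strand), a syndecan best known from nerve cells and macrophages, had 42.2, 37.5 and 48.9 CPM in Ager-/-, 33.1, 47.5 and 42.6 CPM in Ager AHA/AHA and 22.4, 34.9 and 18.3 CPM in WT neutrophils. Its Ager-/- libraries were all above the WT libraries (log2 fold change 0.77, SE 0.221, adjusted p = 0.0370), and the Ager AHA/AHA difference was of like size but not called (log2 fold change 0.71, SE 0.221, adjusted p = 0.0804). Sdc4 had 166, 108 and 165 CPM in Ager-/-, 104, 145 and 124 CPM in Ager AHA/AHA and 94.1, 134 and 127 CPM in WT neutrophils, with overlapping groups (log2 fold change 0.30, SE 0.205, adjusted p = 0.324).

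Of the secreted and granule core proteins, Agrn had 48.4, 63.8 and 59.4 CPM in Ager-/-, 52.5, 66.5 and 61.1 CPM in Ager AHA/AHA and 48.3, 66.7 and 68.3 CPM in WT neutrophils, and all groups overlapped (log2 fold change −0.095, SE 0.184, adjusted p = 0.756). Srgn had 10265, 8769 and 8953 CPM in Ager-/-, 13334, 10112 and 9801 CPM in Ager AHA/AHA and 17726, 12373 and 10012 CPM in WT neutrophils. Its lower Ager-/- values did not pass the test (log2 fold change −0.52, SE 0.212, adjusted p = 0.111), and the highest Ager-/- library lay above the lowest WT library. Hspg2 (perlecan, the large core protein of basement membranes) had 9, 27 and 14 counts in Ager-/- neutrophils, 6, 4 and 4 in Ager AHA/AHA neutrophils and 0, 57 and 2 in WT neutrophils. The 57 counts came from the WT library with the high fibroblast markers: with it the Ager-/- difference was −0.70 (adjusted p = 0.717), and without it 3.51 (adjusted p = 0.0441).

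The 3 calls in the neutrophils labelled Ager-/- rested on few libraries. Xylt1 lost its call without WT replicate 1, WT replicate 3 or Ager-/- replicate 6 (adjusted p = 0.0620, 0.0960 and 0.0735 by edgeR), Sdc3 without those 3 in turn (0.139, 0.128 and 0.0850), and Sdc1 without any 1 of WT replicates 1, 2 and 3 or Ager-/- replicates 1 and 6 (0.0574 to 0.0886). The number of members called was 0 without WT replicate 1 or Ager-/- replicate 6 and 1 without WT replicate 3, which was then Hs6st1. With library totals as the only scaling the median of all genes moved by 0.39, the share of called genes that were higher went to 96.6%, against 62.4%, and Xylt1 was no longer called. DESeq2 put that share at 50.6%. T cell markers moved with this comparison: 5 of 8 were called higher in Ager-/- than in WT neutrophils, and their sum was 25.2 to 51.1 CPM in Ager-/-, 18.5 to 31.6 CPM in Ager AHA/AHA and 10.9 to 13.3 CPM in WT. Of 8 macrophage markers, 3 were higher in Ager-/- and 3 in Ager AHA/AHA than in WT, with sums of 297 to 356 CPM in Ager-/-, 276 to 299.8 CPM in Ager AHA/AHA and 269 to 312 CPM in WT. Endothelial markers summed to 40.8 to 47.7 CPM in Ager-/-, 39.9 to 62.6 CPM in Ager AHA/AHA and 70.8 to 84.3 CPM in WT, with 1 of 3 tested called lower in Ager-/- than in WT and Cldn5 at 0 in every neutrophil library. Smooth muscle markers summed to 43.6 to 50.02 CPM in Ager-/-, 46.8 to 63.6 CPM in Ager AHA/AHA and 60.8 to 90.6 CPM in WT, with 1 of 3 tested called lower. Mast cell markers summed to 18.7 to 25.8 CPM in Ager-/-, 21.5 to 32.6 CPM in Ager AHA/AHA and 30.2 to 33.1 CPM in WT, with none of 1 tested called. Fibroblast markers summed to 37.8 to 66.0 CPM in Ager-/-, 16.8 to 20.2 CPM in Ager AHA/AHA and 5.99, 10.4 and 229.6 CPM in WT, so that all Ager-/- libraries lay above the WT libraries other than replicate 2, and none of 4 tested was called. The 5 alveolar type 1 markers other than Ager summed to 35.2 to 53.7 CPM in Ager-/-, 29.3 to 37.8 CPM in Ager AHA/AHA and 26.1 to 33.8 CPM in WT, with Ager-/- above WT in every library, and none of 3 tested, with Ager counted in the list, was called. The part of these cells in the syndecan and Xylt1 differences was not tested.

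**Figure D3:**
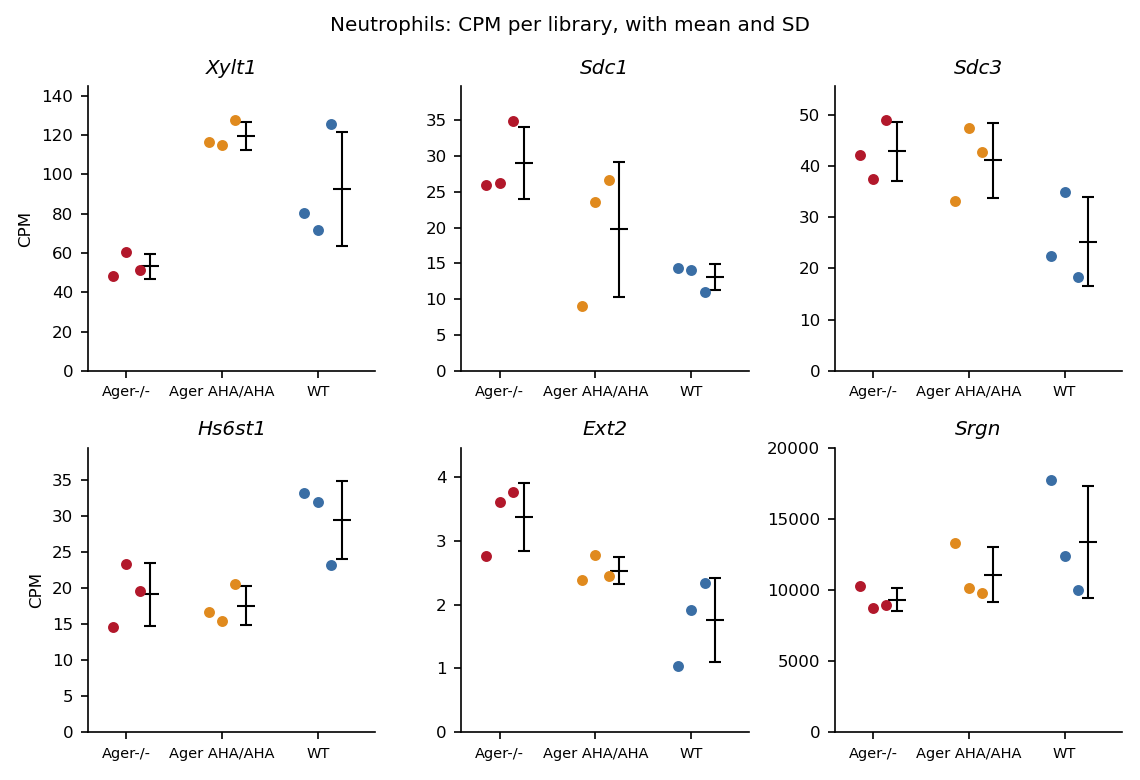
CPM (TMM-scaled within neutrophils) of Xylt1, Sdc1, Sdc3, Hs6st1, Ext2 and Srgn in each neutrophil library of Ager-/-, Ager AHA/AHA and WT mice; points are libraries, and black bars are the mean and SD of a group. The Ager-/- libraries lie below the WT libraries for Xylt1 (48.2 to 60.2 CPM, against 71.5 to 126 CPM) and above them for Sdc1, Sdc3 and Ext2.

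In Ager AHA/AHA neutrophils no member was called against WT by edgeR, where 1.8% of all genes were called higher, 1.84% lower and 1.92% with a log2 fold change beyond 1. Hs6st1 and Sdc3 were the 2 members with an unadjusted p under 0.05 (8%, against 21.5% of all genes), and DESeq2 called both. The median log2 fold change was 0.35 over the tested members and 0.024 over all genes. Sdc3 was called without WT replicate 2, and Sdc1 was called without Ager AHA/AHA replicate 2, each as the only member. Between the neutrophils labelled Ager-/- and the Ager AHA/AHA neutrophils Xylt1 was the only member called, lower in those labelled Ager-/-, where 0.258% of all genes were called higher, 0.275% lower and 0.456% with a log2 fold change beyond 1. That Xylt1 call held without each library in turn, but not with library totals as the only scaling (adjusted p = 0.0956). The members' median was 0.23, against 0.041 over all genes.

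In lung, the Ager-/- comparison with WT called 3 of 36 members: Agrn rose, and Srgn and Sdc2 fell. The background was 1.45% of all 17458 genes called higher and 1.64% called lower. None of the members passed a log2 fold change beyond 1, which 0.894% of all genes did. The median log2 fold change was −0.069 over the members and 0.0071 over all genes, and 10 members (27.8%) had an unadjusted p under 0.05, against 16.3% of all genes.

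Agrn (chr4:156165290-156197488, mm10, minus strand) had 473, 388, 439 and 429 CPM in Ager-/-, 271, 203, 330.5 and 283 CPM in Ager AHA/AHA and 256, 267 and 256 CPM in WT lungs. Every Ager-/- lung was above every Ager AHA/AHA and WT lung (log2 fold change 0.74, SE 0.137, adjusted p = 0.00853 against WT; log2 fold change 0.67, SE 0.125, adjusted p = 0.00749 against Ager AHA/AHA). The Ager AHA/AHA and WT lungs overlapped (log2 fold change 0.067, SE 0.134, adjusted p = 0.973). Hspg2, the other large core protein of basement membranes, had 103, 71.1, 121 and 137 CPM in Ager-/-, 64.2, 47.9, 77.0 and 88.8 CPM in Ager AHA/AHA and 73.3, 61.2 and 50.9 CPM in WT lungs. It lay mostly higher in Ager-/- lungs but overlapped WT and was not called (log2 fold change 0.80, SE 0.242, adjusted p = 0.111), whereas DESeq2 called it (adjusted p = 0.011).

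Srgn (chr10:62493833-62527451, mm10, minus strand) had 69.6, 72.7, 87.1 and 67.6 CPM in Ager-/-, 118, 119.7, 121 and 148 CPM in Ager AHA/AHA and 101, 117 and 121 CPM in WT lungs. Every Ager-/- lung was below every lung of the other genotypes (log2 fold change −0.61, SE 0.114, adjusted p = 0.00915 against WT; log2 fold change −0.77, SE 0.106, adjusted p = 7.4e-04 against Ager AHA/AHA). Sdc2 (chr15:32920723-33034935, mm10, plus strand), a syndecan of mesenchymal and endothelial cells, had 53.4, 56.6, 54.7 and 55.1 CPM in Ager-/-, 80.6, 75.8, 73.3 and 74.9 CPM in Ager AHA/AHA and 81.4, 77.5 and 67.2 CPM in WT lungs. Again no Ager-/- lung reached any other (log2 fold change −0.46, SE 0.0867, adjusted p = 0.00999 against WT; log2 fold change −0.47, SE 0.0809, adjusted p = 0.00440 against Ager AHA/AHA).

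The other syndecans and glypicans were not called. Sdc1 had 424, 476, 465 and 537 CPM in Ager-/-, 384, 372, 335 and 397 CPM in Ager AHA/AHA and 362, 432 and 313 CPM in WT lungs, overlapping between Ager-/- and WT (log2 fold change 0.37, SE 0.122, adjusted p = 0.133). Sdc3 had 48.3, 48.2, 58.5 and 47.5 CPM in Ager-/-, 60.3, 50.3, 65.9 and 79.7 CPM in Ager AHA/AHA and 59.1, 68.1 and 47.2 CPM in WT lungs (log2 fold change −0.20, SE 0.150, adjusted p = 0.572). Both mutants overlapped WT for Sdc3, and they did for Sdc4 as well, which had 271, 315, 319 and 332 CPM in Ager-/-, 264, 293, 269.9 and 357 CPM in Ager AHA/AHA and 301, 317 and 283 CPM in WT lungs (log2 fold change 0.042, SE 0.117, adjusted p = 0.906). Gpc3 had 222, 263, 211 and 243 CPM in Ager-/-, 241, 226, 164 and 337 CPM in Ager AHA/AHA and 537, 282 and 202 CPM in WT lungs (log2 fold change −0.54, SE 0.304, adjusted p = 0.430). The WT spread of Gpc3 exceeded any genotype difference, and Sulf1 was also highest in the WT lung with the high Gpc3. That lung, WT replicate 1, stood apart in keratinocyte and mesothelial markers as well. They summed to 929 CPM there, 529 and 396 CPM in the other WT lungs, 394 to 534 CPM in Ager-/- and 260 to 553 CPM in Ager AHA/AHA lungs. The part of these cells in its values was not tested.

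No enzyme of HS synthesis was called in lung by the edgeR fit used here. For Ager-/- against WT, DESeq2 called Ndst1 (0.71, adjusted p = 0.0161), Hs2st1 (0.52, adjusted p = 0.0136) and Hs3st3b1 (0.54, adjusted p = 0.0220) higher. With no filter, library totals or only the compared groups, edgeR called Hs2st1 as well (adjusted p = 0.0109 to 0.0331). Ndst1 had 211, 244, 285 and 339.8 CPM in Ager-/-, 173, 168, 188 and 267 CPM in Ager AHA/AHA and 164, 209 and 123 CPM in WT lungs, each Ager-/- lung above each WT lung (log2 fold change 0.71, SE 0.214, adjusted p = 0.105). Hs2st1 (chr3:144429706-144570181, mm10, minus strand) had 182, 185, 213 and 219.6 CPM in Ager-/-, 185, 196, 188 and 255 CPM in Ager AHA/AHA and 153, 153 and 114 CPM in WT lungs, and the lungs of both mutants were all above the WT lungs (log2 fold change 0.52, SE 0.137, adjusted p = 0.0570 for Ager-/-; log2 fold change 0.56, SE 0.138, adjusted p = 0.341 for Ager AHA/AHA). These 2 modify neighbouring sites of the chain, Ndst1 the glucosamine nitrogen and Hs2st1 the uronic acid. Hs6st1 had 27.9, 31.7, 30.2 and 38.1 CPM in Ager-/-, 24.2, 29.2, 25.6 and 34.5 CPM in Ager AHA/AHA and 26.6, 33.7 and 19.8 CPM in WT lungs, with overlapping groups (log2 fold change 0.26, SE 0.171, adjusted p = 0.503).

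Of the linker and polymerisation genes, B3gat3 had 69.7, 74.2, 69.3 and 72.3 CPM in Ager-/-, 62.3, 69.0, 67.8 and 72.0 CPM in Ager AHA/AHA and 71.1, 63.8 and 76.7 CPM in WT lungs (log2 fold change 0.017, SE 0.0892, adjusted p = 0.955). Ext1 had 34.3, 40.9, 35.3 and 38.1 CPM in Ager-/-, 39.6, 36.6, 35.0 and 45.3 CPM in Ager AHA/AHA and 41.4, 43.6 and 31.1 CPM in WT lungs (log2 fold change −0.058, SE 0.126, adjusted p = 0.879). Xylt1, the gene that fell in Ager-/- neutrophils, had 3.42, 3.83, 2.76 and 4.59 CPM in Ager-/-, 3.94, 3.92, 2.63 and 4.33 CPM in Ager AHA/AHA and 4.09, 4.72 and 2.98 CPM in WT lungs (log2 fold change −0.11, SE 0.249, adjusted p = 0.887). The genotypes overlapped for all 3.

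WT lung replicate 1 was the lung with the high keratinocyte and mesothelial markers. Without it, Agrn and Sdc2 lost their calls against WT (adjusted p = 0.0551 and 0.0827 by edgeR) and Srgn alone was called. Hspg2 was also called without Ager-/- lung replicate 2. In the comparison of Ager-/- with Ager AHA/AHA lungs, the same 3 were called with all libraries and without each library in turn, where 1.37% of all genes were higher, 1.79% lower and 0.979% beyond a log2 fold change of 1. No member passed that fold. With the replicate number as a block over the lungs of all genotypes, 4 members were called: Extl3, which adds the first glucosamine of the HS chain, joined them at −0.48 (adjusted p = 0.0354), against −0.30 (adjusted p = 0.374) unblocked. The labels do not say what the number marks, and the use of the block here rests on weak correlations in these same data. The members' median in that comparison was −0.043, against −6.4e-05 over all genes.

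No member was called in Ager AHA/AHA lungs against WT by edgeR or DESeq2, where 0.0859% of all genes were called higher, 0.0859% lower and 0.155% beyond a log2 fold change of 1. Hs2st1 and Gpc1 were the 2 members with an unadjusted p under 0.05 (5.56%, against 4.63% of all genes). The medians were 0.0070 over the members and 0.012 over all genes. Some cell type markers moved with the Ager-/- lungs. The 5 alveolar type 1 markers other than Ager summed to 4177 to 4710 CPM in Ager-/-, 2324 to 3313 CPM in Ager AHA/AHA and 2757 to 3405 CPM in WT lungs, not overlapping, as for Agrn. The 8 T cell markers summed to 34.4 to 46.0 CPM in Ager-/-, 49.0 to 55.9 CPM in Ager AHA/AHA and 57.2 to 61.4 CPM in WT lungs, lowest in Ager-/- as Srgn was, with 3 of 8 called lower in Ager-/- than in WT. Macrophage markers were not lower: they summed to 162 to 199 CPM in Ager-/-, 149 to 214 CPM in Ager AHA/AHA and 170 to 180 CPM in WT lungs. None of 8 tested was called, and their median log2 fold change was 0.093 for Ager-/- against WT. Mast cell markers summed to 47.6 to 81.3 CPM in Ager-/-, 73.3 to 97.1 CPM in Ager AHA/AHA and 85.7 to 89.5 CPM in WT lungs, with none of 4 tested called. Fibroblast markers summed to 534 to 757 CPM in Ager-/-, 582 to 1001 CPM in Ager AHA/AHA and 690.4 to 883 CPM in WT lungs, and endothelial markers to 1351 to 1744 CPM in Ager-/-, 1568 to 2266 CPM in Ager AHA/AHA and 1598 to 1827 CPM in WT lungs. In Ager-/- lungs 1 of 6 genes of each of these lists was called lower against Ager AHA/AHA lungs and none against WT lungs, where their median log2 fold changes were −0.42 and −0.18. Neutrophil markers summed to 40.5 to 107 CPM in Ager-/- lungs, to 351.8 CPM in Ager AHA/AHA replicate 4 and 43.4 to 75.5 CPM in the other Ager AHA/AHA lungs, and to 61.0 to 78.3 CPM in WT lungs, with none of 6 tested called and a median of −0.96 for Ager-/- against Ager AHA/AHA. Without that library the Srgn difference between the mutants was −0.68 (adjusted p = 0.00143). The part of these cells in the Agrn, Srgn and Sdc2 differences was not tested.

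**Figure D4:**
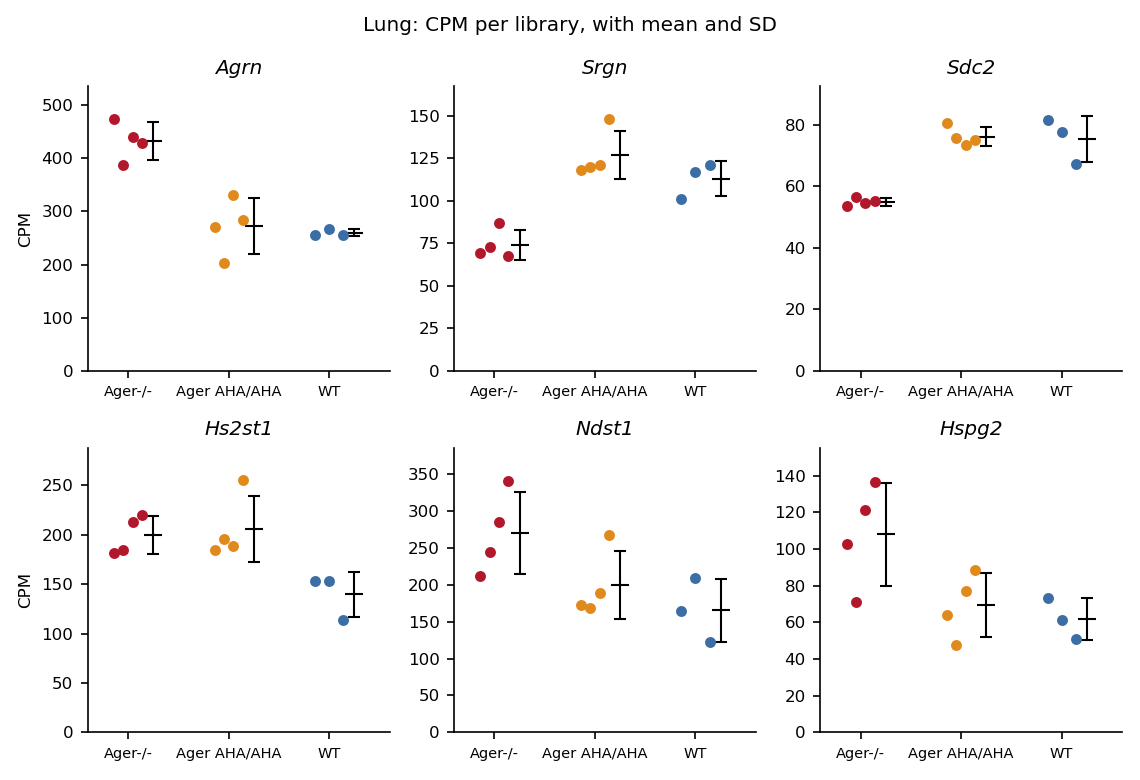
CPM (TMM-scaled within lung) of Agrn, Srgn, Sdc2, Hs2st1, Ndst1 and Hspg2 in each lung library of Ager-/-, Ager AHA/AHA and WT mice; points are libraries, and black bars are the mean and SD of a group. The Ager-/- lungs lie apart from both other genotypes for Agrn (388 to 473 CPM), Srgn (67.6 to 87.1 CPM) and Sdc2 (53.4 to 56.6 CPM), whereas for Hs2st1 both mutants lie above WT.

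Whether a genotype difference itself differed between the tissues was tested as an interaction over all 20 libraries: the difference of mutant and WT in neutrophils minus that in lung. For Ager-/-, with the neutrophil genotype taken from the labels, 5 members were called with a positive interaction, where 7.26% of all 18180 genes were, and Agrn with a negative one, where 1.86% of all genes were. Beyond 1 on the log2 scale the count was 5, against 6.44% of all genes. The median interaction was 0.63 over the members and 0.15 over all genes.

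Of the 6, Agrn (−0.75, SE 0.229, adjusted p = 0.0382) was called higher in Ager-/- than in WT lungs and not called in neutrophils, and Sdc3 (1.03, SE 0.285, adjusted p = 0.0243) was called higher in Ager-/- than in WT neutrophils and not called in lungs. The other 4 were named after their values were seen. Ext2 (1.04, adjusted p = 0.0209) had 2.77, 3.61 and 3.75 CPM in Ager-/-, 2.38, 2.77 and 2.45 CPM in Ager AHA/AHA and 1.04, 1.92 and 2.33 CPM in WT neutrophils. Hs3st1 (2.62, adjusted p = 0.0235), a 3-O-sulfotransferase, had 50, 23 and 13 counts in Ager-/- and 1, 6 and 7 in WT neutrophils. The galactosyltransferases of the linker were the last: B4galt7 (1.33, adjusted p = 0.0213) had 36, 54 and 25 counts in Ager-/- and 18, 10 and 15 in WT neutrophils, and B3galt6 (1.76, adjusted p = 0.0301) had 18, 20 and 9 in Ager-/- and 1, 6 and 5 in WT neutrophils. None of these 4 was called in either tissue alone, and their neutrophil values rest on few counts.

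Each of the 6 interactions lost its call without at least 1 library. Agrn lost it without WT neutrophil replicate 2 or 3, Ager-/- neutrophil replicate 1 or 6, WT lung replicate 1, 2 or 3, or Ager-/- lung replicate 1, 4 or 5 (adjusted p by edgeR 0.0536 to 0.0957). Sdc3 lost it without replicate 1 or 3 of the WT neutrophils, 1 or 6 of the Ager-/- neutrophils or 1 or 2 of the WT lungs (0.0533 to 0.0825). B3galt6 lost it without replicate 1 or 3 of the WT neutrophils, 1 or 4 of the Ager-/- neutrophils or 1 or 3 of the WT lungs (0.0583 to 0.124). Ext2 lost its call without WT neutrophil replicate 1 (0.0890) or WT lung replicate 2 (0.0546), Hs3st1 without replicate 1 of the WT or of the Ager-/- neutrophils (0.0884 and 0.106), and B4galt7 without WT neutrophil replicate 3 or Ager-/- neutrophil replicate 4 (0.0541 and 0.0828). The number called was 2 without WT neutrophil replicate 1 or Ager-/- neutrophil replicate 1, and 3 without WT neutrophil replicate 3 or WT lung replicate 1. Without WT neutrophil replicate 2, edgeR newly called Ext1 (0.88, adjusted p = 0.0170), Ndst2 (0.90, adjusted p = 0.0161) and Ndst1 (−1.07, adjusted p = 0.0401). The share of called genes with a positive interaction was 79.6%, against 52.1% with the RLE scaling, 49.6% with DESeq2 and 96% with library totals. For Ager AHA/AHA, no member's interaction was called by edgeR or DESeq2 and 5 had an unadjusted p under 0.05 (14.3%, against 16.7% of all genes), where 1.09% of all genes were called positive, 0.374% negative and 1.17% beyond 1 on the log2 scale. The medians were 0.47 over the members and 0.11 over all genes. Sdc3 was called without WT neutrophil replicate 2, Extl1 without WT neutrophil replicate 3 and Sdc1 without Ager AHA/AHA neutrophil replicate 2.

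**Figure D5:**
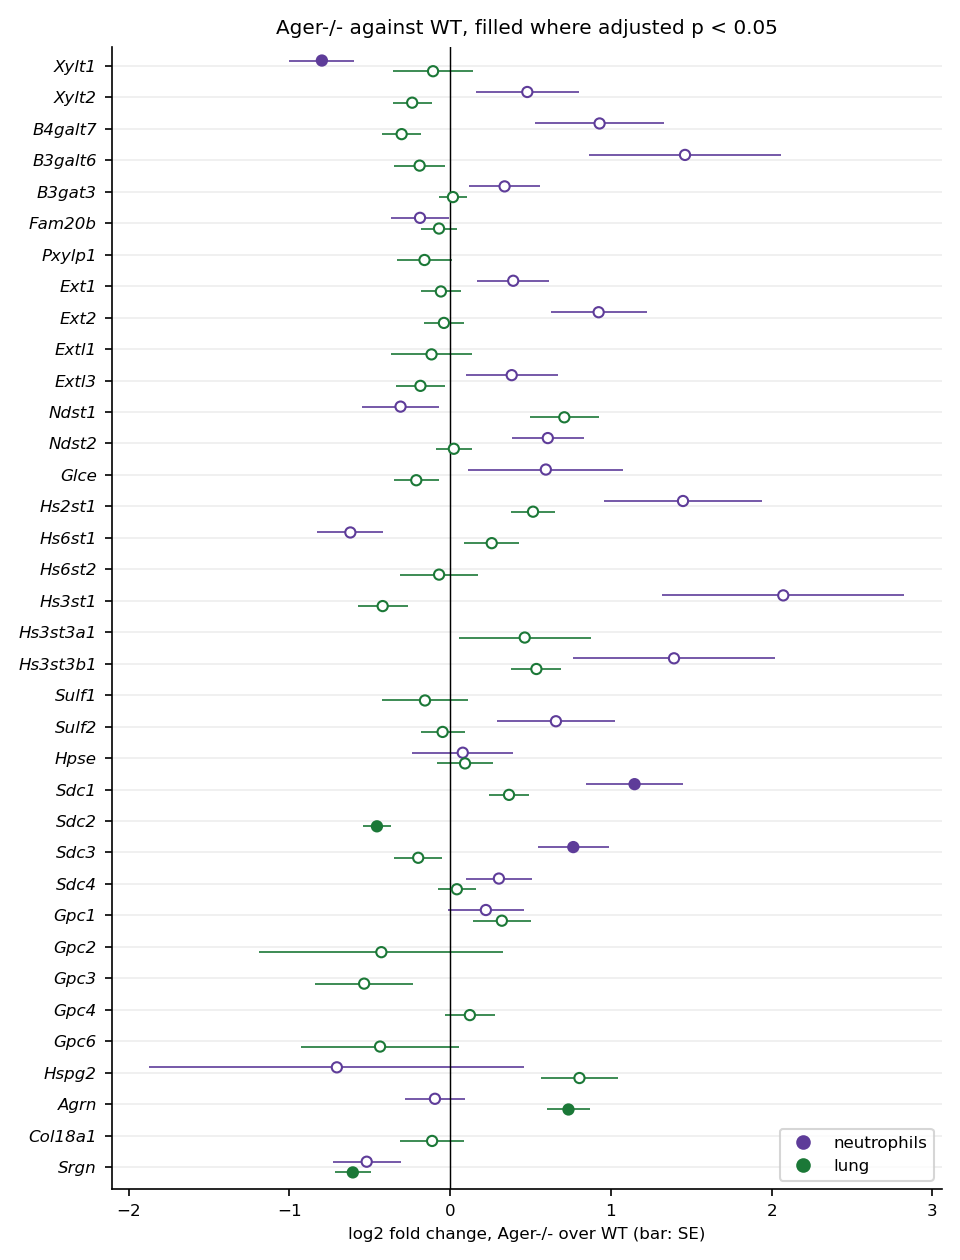
Log2 fold change of Ager-/- over WT, with bars of 1 SE, of each tested member in neutrophils and in lung, ordered by role; filled points were called at an adjusted p under 0.05. Filled points are Sdc1, Sdc3 and Xylt1 in neutrophils and Agrn, Srgn and Sdc2 in lung.

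The members without values in every sample were not called in any genotype comparison within a tissue by the test used here. In neutrophils, Extl3, Gpc1, Ndst2 and Fam20b were the better measured of them, while Pxylp1, Extl1, Hs6st2, Hs3st3a1, Sulf1, Gpc2, Gpc4, Gpc6 and Col18a1 did not have the counts to be tested. Xylt2, Sulf2 and Hpse had 23 to 79, 23 to 78 and 21 to 61 counts per neutrophil library, and Glce, the epimerase that makes iduronic acid, had 6 to 22. Hs3st3b1 had 2 to 26 counts and lay higher in all Ager-/- than in all WT libraries of both tissues without a call by the test used here.

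Neighbouring pathways were read from lists of genes chosen with earlier results of these data known, so their counts are descriptive. Chondroitin and dermatan sulfate share the linker with HS, and 4 of 13 tested genes of their synthesis were called in the neutrophils labelled Ager-/- against WT, 3 of them higher and 1 lower, where 6.65% of all genes were called higher and 4.01% lower. Chpf, a cofactor of chondroitin polymerisation, was higher, at 2.26 ± 0.708 CPM in Ager-/- and 0.487 ± 0.274 CPM in WT neutrophils (SD, n = 3 each; log2 fold change 2.21, SE 0.471, adjusted p = 0.00988). Ust, a uronyl sulfotransferase (log2 fold change 1.30, SE 0.379, adjusted p = 0.0381), and Dse, the dermatan sulfate epimerase (log2 fold change 1.00, SE 0.256, adjusted p = 0.0227), were higher as well. Chst11, a chondroitin 4-O-sulfotransferase, was lower (log2 fold change −0.61, SE 0.163, adjusted p = 0.0288). The median log2 fold change of the 13 was 0.40, against 0.0056 over all genes.

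Of 7 tested lysosomal enzymes that degrade HS, Gusb (β-glucuronidase) alone was called, higher in Ager-/- than in WT neutrophils (log2 fold change 1.30, SE 0.243, adjusted p = 0.00457). None of the 10 genes that supply sugar nucleotides and sulfate donors, of the 7 tested other proteoglycan cores and of the single tested further HS enzyme (Extl2) was called there. In lung, the chondroitin, lysosomal, donor and further HS lists gave no call among 15, 8, 10 and 3 tested genes in any genotype comparison. Of 10 tested other cores, Thbd (thrombomodulin, an endothelial receptor of thrombin) and Tgfbr3 (betaglycan) were lower in Ager-/- than in WT lung (log2 fold change −0.73, SE 0.132, adjusted p = 0.00700; log2 fold change −0.47, SE 0.103, adjusted p = 0.0238), where 1.64% of all genes were called lower. The median of the 10 was −0.42, against 0.0071 over all genes. Thbd was also lower than in Ager AHA/AHA lung (log2 fold change −0.69, SE 0.124, adjusted p = 0.00560). No listed gene was called in Ager AHA/AHA against WT in either tissue, nor between the mutants in neutrophils.

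The Ager-/- interaction was positive for 5 of 16 tested chondroitin and dermatan sulfate genes, among them Chpf, Ust, Dse and Chst14, and for Gusb of the 8 lysosomal genes, where 7.26% of all genes were called positive. The medians were 1.20 over the 16 and 0.15 over all genes, and the positive share of all calls depended on the scaling as for the members. Between WT neutrophils and WT lung, 29.2% of all genes were called higher in neutrophils and 54.2% lower. Of the 8 lysosomal genes 5 were higher in neutrophils and 3 were lower, with a median log2 fold change of 1.14, against −1.24 over all genes. Of the 16 chondroitin and dermatan sulfate genes 3 were higher and 9 lower, of the 10 donor genes 2 were higher and 6 lower, of the 10 tested other cores 3 were higher and 7 lower, and of the 3 tested further HS genes 1 was higher and 2 were lower. These directions come from the same scaling between tissues as those of the members, which library totals moved by −2.48 on the log2 scale.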

How the data were processed

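RNA-seq of 9 air-pouch neutrophil and 11 lung libraries was analysed from the gene table that the authors deposited, whose values are raw counts of reads per gene. Per the submitters' processing notes, reads were passed through CASAVA and fastp, aligned to mm10 with STAR and counted with featureCounts. Versions, strand setting and treatment of multiply mapped reads: not given in the sources used here. The authors' FPKM values and their own comparison columns (fold changes and p-values) were not used.

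The 36 members and all gene lists were chosen with earlier results of these data known. Libraries were grouped by tissue and genotype from the labels. Each tissue was fitted alone over its 3 genotypes with edgeR 4.0.16 in R 4.3.3 (TMM factors, filterByExpr, robust quasi-likelihood F-test, Benjamini-Hochberg adjustment over all genes tested, called at adjusted p under 0.05). The tissue contrast and the interactions were fitted over all 20 libraries. SE is the absolute log2 fold change divided by the square root of F. CPM used TMM factors within a tissue, and CPM per kb used joint factors and the table's gene lengths. Totals per library were 16764589 to 24818703 counts, and the precision of a gene follows its count. Counts are reads without molecular identifiers, so zeros cover counting error only.

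Values in every sample are given for members called in at least 1 of the 6 genotype comparisons, for the 5 members with the highest length-scaled WT level in each tissue, and for Ndst1, Ext1, Hs2st1 and Hspg2. From the other lists, at most 4 called genes per list and comparison were named. Listed alternatives were DESeq2 1.42.0, RLE or library totals as scaling, other filters, a fit without the robust option, only the compared groups, a replicate block, an added fold threshold and each library left out. The replicate numbers were checked by correlating the deviations of same-numbered libraries from their group means: in Ager-/- and Ager AHA/AHA lungs all 3 pairs lay between 0.117 and 0.167 (pairs of unlike numbers between −0.276 and 0.15), and they were taken as paired there only. The ranges overlap, the labels do not say what a number marks, and the block covered all genotypes of a tissue. The fits were also run on counts simulated from their own estimates of the spread, with planted changes. That run does not test the calls reported here. Promoter windows came from RefSeq (GRCm38.p6).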

Additional observations from a re-analysis of the deposited data

Results flagged for a closer look

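Some member values stood apart from the rest of their group. In Ager-/- lung replicate 4, B3galt6 was at 13.4 CPM, with the next lung at 9.96 CPM, and Sdc3 was at 58.5 CPM, with the next at 48.3 CPM. In Ager AHA/AHA lung replicate 4, Hs2st1 was at 255 CPM, with the next at 195.6 CPM, and Srgn was at 148 CPM, with the next at 121 CPM. These 4 are what Dixon's criterion picked out of 36 groups of 4 libraries, a number of groups in which chance picks about 1 in 20. Ager AHA/AHA lung replicate 4 also stood apart in neutrophil markers, which summed to 351.8 CPM there and to 43.4 to 75.5 CPM in the other Ager AHA/AHA lungs; Srgn is among the members with the highest levels in neutrophils, and the part of these cells in its value was not tested. The Srgn difference between Ager-/- and Ager AHA/AHA lungs was −0.68 on the log2 scale without that library (adjusted p = 0.00143 by edgeR), against −0.77 with it.

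The difference between Ager-/- and WT itself differed between neutrophils and lung for 6 members by the interaction test, with the neutrophil genotype taken from the labels, which the low Ager counts of these libraries cannot check: Hs3st1 (2.62 on the log2 scale), B3galt6 (1.76), B4galt7 (1.33), Ext2 (1.04), Sdc3 (1.03) and Agrn (−0.75). Of these, only the Agrn interaction was negative. DESeq2 also called Hs6st1 (−0.99, adjusted p = 0.0120) and Ndst1 (−1.12, adjusted p = 0.0162), both negative. So did edgeR with RLE scaling or with no filter. The B4galt7 gene overlaps an antisense gene, Gm15911, from which its reads cannot be told apart without a strand setting. Of the 6 members called by the interaction test, all but Sdc3 and Agrn were below 100 counts in every neutrophil library.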

How the results depend on the processing

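The number of members called depended on the processing. For Ager-/- against WT neutrophils, 3 members were called, against 6 with DESeq2, 10 with library totals, 6 with no filter, 0 with the replicate block, 5 with only the compared groups, 1 with the fold threshold and 0 to 3 without each library in turn. There DESeq2 added Ext2, Hs3st1 and Hs6st1. For Ager AHA/AHA against WT neutrophils the count was 0, against 2 with DESeq2, 2 with no filter, 1 with only the compared groups and 0 to 1 without each library. For Ager-/- against Ager AHA/AHA neutrophils it was 1, and 0 with library totals. For Ager-/- against WT lung it was 3, against 7 with DESeq2 (which added Ndst1, Hs2st1, Hs3st3b1 and Hspg2), 0 with the fold threshold and 1 to 4 without each library. For Ager AHA/AHA against WT lung it was 0, and 1 with no filter. For Ager-/- against Ager AHA/AHA lung it was 3, against 6 with DESeq2 and 0 with the fold threshold. The Ager-/- interaction was called for 6 members, against 10 with library totals, 10 with no filter, 1 with the replicate block and 2 to 8 without each library, and the Ager AHA/AHA interaction for 0, against 1 with no filter and 0 to 1 without each library. Between WT neutrophils and WT lung, library totals reversed Ext1 (−1.90), Ndst2 (−1.99), Hs6st1 (−0.024), Sdc3 (−1.36), Sdc4 (−1.48) and Gpc1 (−0.72). The cause of these changes was not tested, except that library totals leave out the factors that adjust for a few abundant genes. In Ager AHA/AHA against WT neutrophils and in the contrast of the mutants, library totals moved the share of called genes that were higher to 71.5% and 71.4%, against 49.4% and 48.4%, and DESeq2 moved the second to 28.8%. For the Ager AHA/AHA interaction RLE gave 55.9% and DESeq2 50.8%, against 74.4%. Low counts limit Hs3st1, B3galt6 and Hspg2 in neutrophils. In the lungs of the mutants the replicate block kept the calls on Agrn, Srgn and Sdc2 and added Extl3, and in the other comparisons the numbers were not taken as pairs.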
